A study of Mus musculus with 18 samples.

Results

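Genes of glycolysis and of the response to low oxygen were followed in mouse embryoid bodies with and without induction of Flag-Msgn1. The set was a list of 37 gene symbols: 17 glycolytic enzymes and 20 other genes, namely glucose and lactate transporters, regulators of glycolytic flux, the HIF alpha subunits Hif1a and Epas1, prolyl hydroxylases and other targets of the hypoxia response. A member was measured if a probe set of the array was annotated to that gene and to no other, and the brightest such probe set stood for it. By this rule 33 of the 37 were measured, among 14273 genes tested, and all 33 passed the filter on dim signals. The enzymes Gpi1, Gapdh and Eno1 and the mitophagy receptor gene Bnip3l had no probe set annotated to them alone, which left 14 enzymes and 19 other genes.

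The cells were a single embryonic stem cell line of strain 129P2 (formerly called 129/Ola), A2lox-Flag Msgn1, which carries Flag-tagged Msgn1 under doxycycline control. Msgn1 is a transcription factor of the presomitic mesoderm. All groups came from cells grown on mitomycin-treated mouse embryonic fibroblasts and made into embryoid bodies for 2 days. Induced cultures then received 1 µg/ml doxycycline, uninduced cultures received none, and both were collected at 12 h, 24 h and 48 h, with 3 arrays in each of the 6 groups (18 in all). The labels call the 3 arrays biological replicates and say no more of separate cultures, so p-values measure the spread between these samples. No group here received doxycycline without the transgene, so the drug and Flag-Msgn1 cannot be told apart. Embryoid bodies hold several cell types at once, and in such bulk samples fewer cells of a type and less RNA per cell cannot be told apart.

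Glycolysis turns glucose into pyruvate, and lactate dehydrogenase turns pyruvate into lactate where mitochondria do not take it up. When oxygen is low, prolyl hydroxylases no longer mark the HIF alpha subunits for destruction, and these pair with ARNT, bind a short DNA motif and raise transcription of glucose transporters, glycolytic enzymes, Pdk1, Vegfa and the hydroxylases themselves. HIF is controlled mainly at the level of protein, which an RNA array does not see.

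The deposited values were array signals on a linear scale, whose 2% trimmed mean was 150 on every array, as found from the values, since the labels state no scaling. Tests were run on log2(signal + 32), so that changes of dim genes are understated. Fold changes given below are of signal + 32, and are smaller than those of the signals themselves. A gene was called where limma's test gave an adjusted p (Benjamini-Hochberg over all 14273 genes) under 0.05. Array medians ran from 18.8 to 22.2, replicate arrays correlated at 0.990 to 0.994, and no arrays were identical. Msgn1 signals were 44.5 to 76.8 on induced and 4.69 to 25.2 on uninduced arrays. From 12 h to 48 h in uninduced cultures, where 18.7% of all genes were called higher and 15% lower, 7 of 10 pluripotent stem cell markers fell and 2, Nanog (0.64) and Tdgf1 (0.59), rose. Of the presomitic mesoderm markers 7 of 10 measured rose.

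Arrays of the same group differed in the members of this set more than in other genes, and mostly in the same direction. In the uninduced 12 h group, replicate 2 was the lowest of the 3 arrays for 28 of the 33 members (84.8%, against 36.5% of all genes tested), and replicate 3 was the highest for 27 (81.8%, against 35.8%). In the uninduced 24 h group, replicate 2 was the highest for 26 members (78.8%, against 33.0% of all genes tested). Replicate 3 of that group was the lowest for 27 (81.8%, against 41.7%). Replicate 1 of the induced 12 h group was the highest for 27 members (81.8%, against 38.1%). The median deviation of the members from their group mean ran from -0.30 to 0.24 log2 units over the 18 arrays, while that of all genes stayed between -0.016 and 0.009. The enzymes and the other genes shifted with the same sign on 16 of the 18 arrays. Within-group SD had a median of 0.137 log2 units over all genes, 0.145 over the 14 enzymes and 0.263 over the 19 other genes. It was largest for Ddit4 (0.522), a stress-induced inhibitor of mTORC1 signalling, Adm (0.50), which encodes the vasodilator peptide adrenomedullin, and Ndrg1 (0.491), a stress-responsive gene. Comparisons with these arrays are given with and without them where that changes the result.

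**Figure D1:**
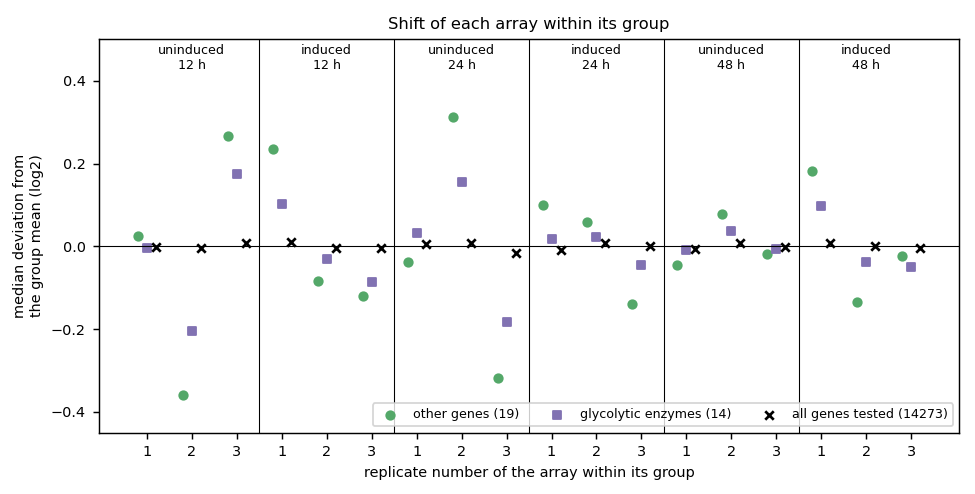
Median deviation of each of the 18 arrays from its group mean, in log2 units, for the 19 other genes (green circles), the 14 glycolytic enzymes (purple squares) and all 14273 genes tested (crosses). All genes stayed between -0.016 and 0.009. The other genes ran from -0.359 on replicate 2 of the uninduced 12 h group to 0.312 on replicate 2 of the uninduced 24 h group. The enzymes ran from -0.205 to 0.174, on replicates 2 and 3 of the uninduced 12 h group.

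Upstream sequences of 6 members are shown as examples from the groups described below. Egln1, Ddit4 and P4ha1 rose with culture time, the enzymes Ldha and Pgk1 rose less, and Ldhb fell. They were picked after the values had been seen. Each is the 200 bases before the transcript start in RefSeq (GRCm38.p6), read 5′ to 3′ on the gene's own strand. Capitals mark ACGTG, the core of the HIF-binding motif, which on the opposite strand reads CACGT, and overlapping matches run together as CACGTG, which is also an E-box.
Egln1 (chr8:124949255-124949454, minus strand): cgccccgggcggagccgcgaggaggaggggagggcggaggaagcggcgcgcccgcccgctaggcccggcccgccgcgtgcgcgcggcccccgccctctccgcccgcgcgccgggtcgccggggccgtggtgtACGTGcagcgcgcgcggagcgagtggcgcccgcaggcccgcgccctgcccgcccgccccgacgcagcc
Ddit4 (chr10:59951771-59951970, minus strand): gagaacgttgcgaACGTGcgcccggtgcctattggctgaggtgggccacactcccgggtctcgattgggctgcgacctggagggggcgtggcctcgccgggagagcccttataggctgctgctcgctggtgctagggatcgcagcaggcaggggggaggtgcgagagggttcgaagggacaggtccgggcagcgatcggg
P4ha1 (chr10:59323096-59323295, plus strand): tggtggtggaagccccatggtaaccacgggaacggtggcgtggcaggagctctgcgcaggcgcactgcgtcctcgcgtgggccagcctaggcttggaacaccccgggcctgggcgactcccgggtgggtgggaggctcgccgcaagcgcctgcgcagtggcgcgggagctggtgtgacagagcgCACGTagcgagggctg
Ldha (chr7:46845604-46845803, plus strand): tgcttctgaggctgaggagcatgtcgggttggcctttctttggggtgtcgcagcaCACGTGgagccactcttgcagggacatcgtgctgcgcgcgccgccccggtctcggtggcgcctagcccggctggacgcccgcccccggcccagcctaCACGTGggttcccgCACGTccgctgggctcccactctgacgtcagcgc
Pgk1 (chrX:106186900-106187099, plus strand): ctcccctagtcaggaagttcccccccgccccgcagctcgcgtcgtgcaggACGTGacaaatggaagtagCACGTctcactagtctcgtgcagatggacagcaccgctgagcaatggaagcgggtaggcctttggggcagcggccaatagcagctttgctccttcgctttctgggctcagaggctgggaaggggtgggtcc
Ldhb (chr6:142507958-142508157, minus strand): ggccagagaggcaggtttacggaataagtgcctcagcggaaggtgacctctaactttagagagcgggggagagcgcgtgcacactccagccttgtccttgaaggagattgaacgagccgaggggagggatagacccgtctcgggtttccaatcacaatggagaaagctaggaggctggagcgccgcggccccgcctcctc

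The Ldha sequence held the motif in 3 separate places, that of Pgk1 in 2, those of Egln1, Ddit4 and P4ha1 in 1, and that of Ldhb in none. Ldhb held the looser form GCGTG at position -126. These examples do not show a link between the motif and the direction of change. Tpi1, which rose, had no match of either form in its window, and Pfkl, which rose, had GCGTG only. Hk2 and Hif1a held ACGTG and were not called from 12 h to 48 h in uninduced cultures. Over windows of 300 bases (250 before to 50 after each start), ACGTG stood on either strand in 26 of 47 member windows (55.3%), from 33 members with an entry (not Epas1, Bnip3l, Slc2a3 or Ndrg1). These 33 are not the 33 measured members, since they include the unmeasured enzymes Gpi1, Gapdh and Eno1. The share of windows was 42.9% for the enzymes (12 of 28) and 73.7% for the other genes (14 of 19). It was 19.6% of all 32851 promoters and 24.5% of those of the genes tested. Some genes had several windows. Counted by gene, ACGTG stood in a window of 10 of 17 enzymes (58.8%) and 13 of 16 other genes (81.2%). The share by gene was 28.3% for the genes tested. With GCGTG accepted as well, the shares were 80.9% of member windows, 43.8% of all promoters and 59.2% of those of the genes tested. These matches describe letters in the windows, and no binding was measured here.

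Between 12 h and 48 h most of the set rose in uninduced embryoid bodies, while Epas1 and a few other genes fell. Of the 33 members 20 were called higher at 48 h than at 12 h and 4 lower, where 18.7% of all genes tested were called higher and 15% lower. The median change was 0.46 log2 units, against 0.0085 over all genes. Among the 19 other genes 12 rose and 2 fell (median 0.74), and among the 14 enzymes 8 rose and 2 fell (median 0.30). Without replicate 2 of the uninduced 12 h group, the array on which most members were lowest, the medians were 0.39 and 0.26.

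**Figure D2:**
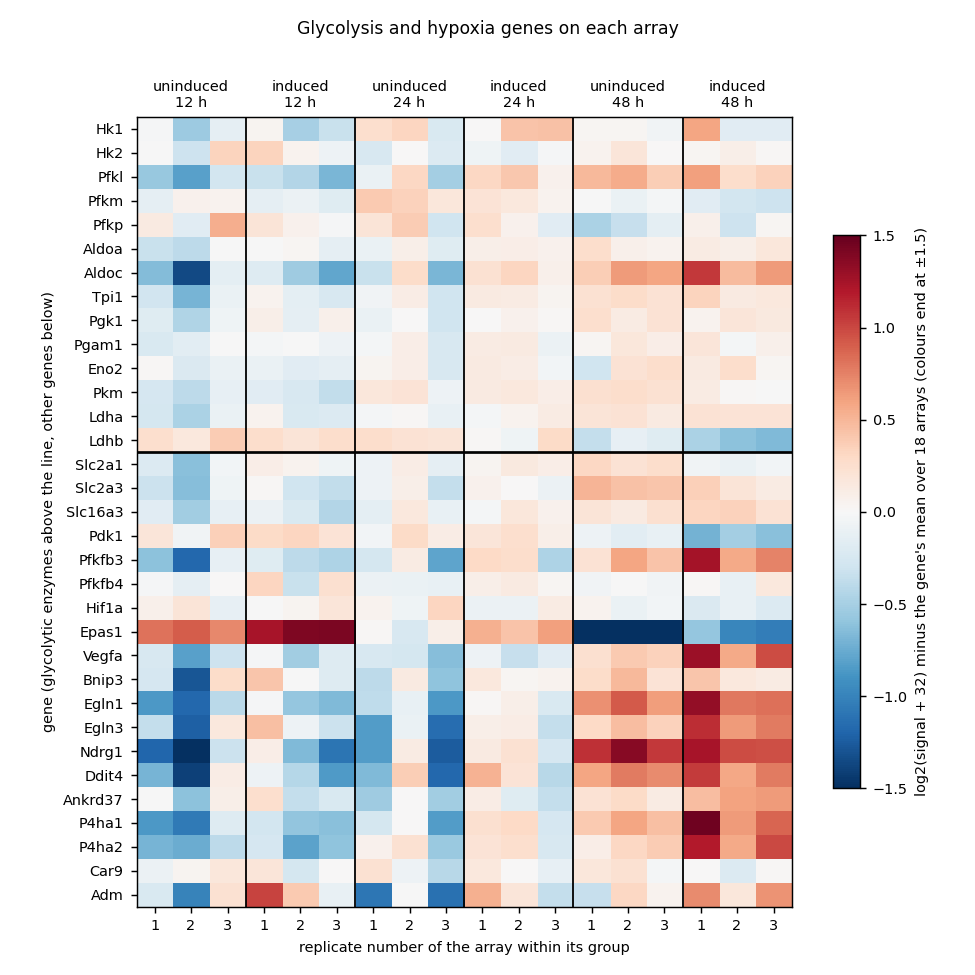
log2(signal + 32) of each of the 33 measured members on each of the 18 arrays, as the difference from that gene's mean over all arrays (colours end at ±1.5), with the 14 enzymes above the line and the 19 other genes below it. Most rows turn red at 48 h, while Epas1 runs the other way, and columns of one colour within a group show the shared shift of single arrays.

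The HIF alpha subunits did not move together. Epas1, which encodes HIF-2 alpha, fell most of all members: its signals were 581, 618 and 542 at 12 h, 322, 263 and 339 at 24 h, and 74.1, 69.8 and 64.1 at 48 h in uninduced cultures. No array of a later time overlapped an earlier one. The change from 12 h to 48 h was -2.60 ± 0.11 (SE) log2 units (adjusted p = 1.53e-13, limma), a 6.04-fold fall, and both steps were called (-0.85 to 24 h and -1.74 from 24 h to 48 h). A second, dimmer Epas1 probe set fell too, by 1.19 log2 units. Hif1a, which encodes HIF-1 alpha, had uninduced means ± SD of 2370 ± 269 at 12 h and 2241 ± 126 at 48 h, a change of -0.08 that was not called (adjusted p = 0.583, limma).

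The prolyl hydroxylase genes Egln1 and Egln3, whose enzymes mark HIF alpha for degradation, rose. Egln2 of the same family, outside the set, was not called (0.16, adjusted p = 0.125, limma). Egln1 had signals of 161, 122 and 233 at 12 h, 236, 292 and 161 at 24 h, and 529.9, 631 and 507 at 48 h. The 48 h arrays stood clear of all earlier ones, while 12 h and 24 h overlapped. The change from 12 h to 48 h was 1.56 ± 0.20 log2 units, or 2.94-fold (adjusted p = 2.02e-06, limma). Egln3 rose by 0.84 ± 0.27 (adjusted p = 0.0177, limma). That call was lost without replicate 2 of the uninduced 12 h group (0.47, adjusted p = 0.167) or of the 48 h group (adjusted p = 0.0575), and with a robust trend (0.0601).

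Of the 9 other hypoxia targets measured, 6 were among the members that rose. Ndrg1 had the largest rise of the set, with signals of 116, 74.9 and 238 at 12 h, 157, 337 and 110.1 at 24 h, and 689, 843 and 673 at 48 h. Its 48 h arrays lay above all others, and the earlier groups overlapped widely. The change from 12 h to 48 h was 2.23 ± 0.31 log2 units, or 4.70-fold (adjusted p = 6.24e-06, limma). The Ndrg1 probe set can match other transcripts, but all 5 kept probe sets of the gene were called in this direction.

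Ddit4 was at 1163, 702 and 2072 at 12 h, 1197, 2469 and 827 at 24 h, and 2899.5, 3305 and 3139 at 48 h. The groups at 12 h and 24 h were scattered, and the 48 h arrays were tight and higher. It rose by 1.36 ± 0.32 log2 units from 12 h to 48 h (adjusted p = 0.00236, limma). P4ha1, a subunit of the collagen prolyl 4-hydroxylase, was at 85.1, 69.6 and 154 at 12 h, 144, 181 and 87.0 at 24 h, and 246, 288 and 257 at 48 h. It rose by 1.18 ± 0.22 log2 units, with no overlap between 48 h and the earlier times. P4ha2 of the same family rose by 0.88 ± 0.19, the angiogenic factor Vegfa by 0.78 ± 0.17 and the mitophagy gene Bnip3 by 0.74 ± 0.24. The Bnip3 call was lost without replicate 2 of the uninduced 12 h group (0.31, adjusted p = 0.221) or of the 48 h group (adjusted p = 0.0841), with a robust trend (0.0888) and with the compared arrays alone (0.0502). Ankrd37 (0.39, adjusted p = 0.0962, limma) and Adm (0.34, adjusted p = 0.446) were not called, though Ankrd37 was without replicate 3 of the uninduced 12 h group (0.53, adjusted p = 0.0438). Car9, the cell surface carbonic anhydrase, lay between 0.441 and 19.1 on all 18 arrays, under the offset of 32, where a change hardly shows on this scale.

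All 3 transporter genes rose from 12 h to 48 h: the glucose transporters Slc2a3 by 0.79 ± 0.12 and Slc2a1 by 0.56 ± 0.096, and the lactate exporter Slc16a3 by 0.46 ± 0.12 log2 units. The Slc2a3 probe set can match other transcripts, and all 4 kept probe sets of that gene were called higher. Pfkfb3, whose enzyme makes the activator of phosphofructokinase, was at 65.4, 34.0 and 105 at 12 h, 93.1, 131 and 54.7 at 24 h, and 143, 194 and 170.2 at 48 h. Its 48 h arrays were above all earlier ones, and the change from 12 h was 1.06 ± 0.24 log2 units (adjusted p = 0.00165, limma), or 0.66 with its probe sets averaged. Pfkfb4 of the same family did not pass (0.01, adjusted p = 0.965).

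Pdk1, the kinase that shuts off pyruvate dehydrogenase and a well-known HIF target, went the other way. Its uninduced signals were 2692, 2269.8 and 3037 at 12 h, 2299, 2881 and 2563 at 24 h, and 2249, 2109 and 2189 at 48 h. The 48 h arrays lay below all 12 h arrays, but by little next to the 12 h spread. The change was -0.28 ± 0.089 log2 units (adjusted p = 0.0195, limma). This call was lost without replicate 1 (adjusted p = 0.0583) or replicate 3 (0.148) of the uninduced 12 h group or replicate 2 of the uninduced 48 h group (0.0709), with quantile normalization (0.0553) and with the probe sets averaged (-0.16, 0.129), and 1 of the 3 kept Pdk1 probe sets gave 0.07 and was not called.

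Of the 14 enzymes 8 rose, 2 fell and 4 did not pass. Aldoc, a brain-type aldolase, was at 251, 140.5 and 368 at 12 h, 319, 504 and 242 at 24 h, and 538, 655 and 636 at 48 h. Its 48 h arrays exceeded every earlier array, with a change from 12 h of 1.25 ± 0.24 log2 units (adjusted p = 0.000263, limma). The liver-type phosphofructokinase Pfkl rose by 1.02 ± 0.16, and by 0.64 with its probe sets averaged. The other 6 called enzymes were bright and rose by 0.23 to 0.60 log2 units: triosephosphate isomerase Tpi1 0.60, pyruvate kinase Pkm 0.50, lactate dehydrogenase Ldha 0.46, phosphoglycerate kinase Pgk1 0.43, aldolase Aldoa 0.37 and phosphoglycerate mutase Pgam1 0.23. The probe sets of Tpi1, Pgk1 and Aldoa can match other transcripts, as can those of Ldhb and Adm. The Pgam1 call was lost without replicate 1 or 2 of the uninduced 12 h group or replicate 2 or 3 of the 48 h group (adjusted p from 0.0727 to 0.150), and without the filter (0.0567) or the intensity trend (0.0776).

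Some enzymes exist as products of several genes. Both aldolase genes rose, while the phosphofructokinase and lactate dehydrogenase genes had calls in both directions, and differences between genes were not tested. Of the phosphofructokinase genes Pfkl rose, the platelet type Pfkp fell, and the muscle type Pfkm had a difference of -0.04, which was not called. Pfkp was at 793, 638 and 1067 at 12 h, 829, 948 and 579 at 24 h, and 509.9, 562 and 646 at 48 h, so that 12 h and 48 h overlapped at 1 array. Its change was -0.49 ± 0.16 (adjusted p = 0.0236, limma), lost without replicate 3 of the uninduced 12 h group (adjusted p = 0.175) or replicate 1 (0.0983) or 2 (0.0615) of the uninduced 48 h group and with the probe sets averaged (-0.27, 0.191), and 1 of its 3 kept probe sets was called. Of the lactate dehydrogenase genes Ldha rose and Ldhb fell. Ldhb was at 3496, 3272 and 3828 at 12 h, 3537, 3421 and 3352 at 24 h, and 2273, 2689 and 2580.0 at 48 h. The earlier groups overlapped and the 48 h arrays were all lower, with a change from 12 h of -0.49 ± 0.082 (adjusted p = 8e-05, limma), and all 4 kept Ldhb probe sets were called lower. The hexokinases Hk1 (0.23, adjusted p = 0.392) and Hk2 (0.07, 0.690) and the neuronal enolase Eno2 (0.16, 0.392) were not called.

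More members were called in the later step than in the earlier one. From 12 h to 24 h in uninduced cultures 2 members were called higher and 1 lower, where 2.21% of all genes were called higher and 1.82% lower. They were Pkm (0.36 ± 0.073, adjusted p = 0.00749, limma), Pfkm (0.31 ± 0.080, 0.0340) and, falling, Epas1. The count of higher members ran from 0 to 5 as single arrays were left out: 0 without replicate 2 of the 12 h group or replicate 1 or 2 of the 24 h group, 1 without replicate 1 of the 12 h group, 4 without replicate 3 of the 24 h group and 5 without replicate 3 of the 12 h group. From 24 h to 48 h 15 members were called higher and 3 lower, where 12.9% of all genes were called higher and 11.8% lower. The 15 were 5 enzymes and 10 other genes, with Ndrg1 (1.83), Egln1 (1.20), Ddit4 (1.19) and Egln3 (1.06) changing most, and the 3 that fell were Epas1, Ldhb (-0.45) and Pfkm (-0.35). The Ddit4 call was lost without replicate 3 of the uninduced 24 h group (0.84, adjusted p = 0.0676) and with a robust trend (0.0584). Without replicate 3 of the uninduced 24 h group, on which most members were lowest, 6 were called higher, and without its replicate 1 there were 9.

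With doxycycline members of the set rose and fell over this interval too. From 12 h to 48 h in induced cultures 16 members were called higher and 4 lower, where 22.8% of all genes were called higher and 18.9% lower. Ndrg1 (1.62), P4ha1 (1.49), P4ha2 (1.47), Egln1 (1.40) and Ddit4 (1.25) rose most, and Epas1 (-2.21), Pdk1 (-0.89), Ldhb (-0.83) and Hif1a (-0.25) fell. The Hif1a call was lost under quantile normalization (-0.14, adjusted p = 0.190), with the probe sets averaged (-0.16, 0.0505), without the intensity trend (0.0632), and without replicate 2 (0.0527) or 3 (0.138) of the induced 12 h group or replicate 1 (0.0914) or 3 (0.0802) of the 48 h group. The rises of Egln3 and Tpi1 were lost without replicate 2 or 3 of the induced 12 h group or replicate 1 of the 48 h group, with adjusted p from 0.0525 to 0.0892 for Egln3 and from 0.0780 to 0.121 for Tpi1. The Egln3 call was also lost with a robust trend (0.0553), and that of Tpi1 without the filter (0.0516) or the intensity trend (0.0568). Slc2a1, Bnip3, Aldoa, Pgk1 and Pgam1, called in uninduced cultures, had estimates of -0.09, 0.16, 0.16, 0.12 and 0.11 here and did not pass, while Ankrd37 (0.68) did.

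**Figure D3:**
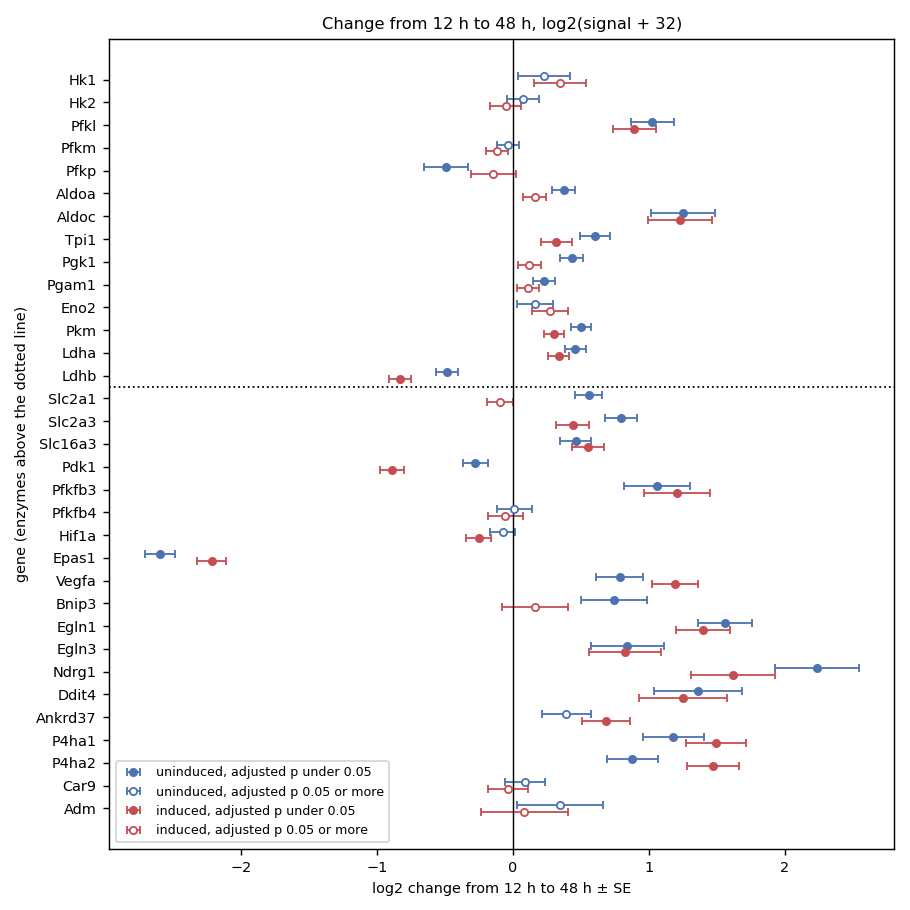
Change of each member from 12 h to 48 h in log2 units, with its standard error, in uninduced (blue) and induced (red) cultures; filled points have an adjusted p under 0.05, and the dotted line parts the 14 enzymes from the 19 other genes. Ndrg1 reached 2.23 and Epas1 -2.60 in uninduced cultures, and most enzymes lay between 0 and 0.6.

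Other genes of the same pathways were listed apart from the members. Over all genes tested 18.7% were called higher and 15% lower from 12 h to 48 h in uninduced cultures. Of 31 further hypoxia responders measured 13 rose (41.9%) and 4 fell (12.9%). Anxa2 rose by 1.40, Fam162a by 1.14 and Ak3 by 0.93 log2 units, and the heme oxygenase gene Hmox1 fell by 0.93. Of 18 further genes of glycolysis and glycogen use 8 rose (44.4%) and 2 fell (11.1%). They included phosphoglucomutase Pgm1 (1.58), the liver glycogen phosphorylase Pygl (1.20) and glycogen branching enzyme Gbe1 (0.69), while Tigar (-0.98), which lowers glycolytic flux, fell. Gbe1 and Gys1 also stood in the list of hypoxia responders, so the counts of these lists share genes. Of 11 further genes of the HIF pathway 3 rose (27.3%) and none fell: Hif3a (0.72), Siah1a (0.50) and Arnt2 (0.43).

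Neighbouring pathways are given against the same shares. Of 12 genes of the pentose phosphate and serine branches 1 rose (8.33%) and 7 fell (58.3%), among them Psph (-1.10) and Psat1 (-0.88) of serine synthesis. Of 23 genes of pyruvate oxidation and the citric acid cycle 3 rose (13.0%) and 6 fell (26.1%), with Pdhb of pyruvate dehydrogenase at -0.79. Of 26 respiratory chain genes none rose and 5 fell (19.2%, near the share of all genes), with Ndufs1 at -0.49. None of these lists was tested as a set.

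Markers of cell types moved over the same interval. The summed signal of 10 pluripotent markers went from 24050 to 24790 at 12 h down to 16520 to 17080 at 48 h in uninduced cultures, and that of 10 presomitic mesoderm markers from 389 to 484 up to 2645 to 3165. The sum of 7 extraembryonic endoderm markers went from 244 to 274 up to 1673 to 2025. Of these Foxa2 (3.24), Sox17 (3.06) and Gata6 (2.17), which definitive endoderm expresses too, and Sox7 (0.32) rose, while Amn (-0.01), Cubn (-0.19) and Dab2 (0.27) were not called and Afp, Apoa1 and Ttr were not tested. The sum of 10 feeder fibroblast markers was 857 to 985 at 12 h and 592 to 745 at 48 h. Their part in the members' course was not tested.

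The second question of the design is what induction of Flag-Msgn1 changed at each time. At 12 h 1 member, Epas1, was called higher in induced than uninduced cultures and none lower. Of all genes 0.897% were called higher and 0.182% lower. At 24 h again only Epas1 was called, higher, where 2.93% of all genes were called higher and 0.995% lower. At 48 h 3 members (Epas1, Vegfa and P4ha2) were called higher, where 6.92% of all genes were, and 3 (Pdk1, Ldhb and Slc2a1) lower, where 5.56% were. The counts at 48 h were thus 9.09% of the members in each direction.

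Epas1 stood higher after induction at all 3 times while falling in both arms. Its induced signals were 789.6, 883 and 891 at 12 h, 470.2, 437 and 500.4 at 24 h, and 200.4, 144 and 137 at 48 h. At each time every induced array lay above every uninduced array. The difference was 0.53 ± 0.11 log2 units at 12 h (adjusted p = 0.0124, limma), 0.57 ± 0.11 at 24 h (0.00298) and 0.91 ± 0.11 at 48 h (2.73e-06), or 1.45-fold, 1.48-fold and 1.88-fold. The 48 h effect was not called different from the 12 h effect by the interaction test (0.38 ± 0.15, adjusted p = 0.181).

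The 12 h call for Epas1 was lost without replicate 1 (adjusted p = 0.0526) or 3 (0.0631) of the uninduced group or replicate 2 (0.0825) or 3 (0.0716) of the induced group, and the 24 h and 48 h calls were kept in every such test. The second Epas1 probe set, with a mean signal of 40.9, showed 0.27, 0.15 and 0.23 at the 3 times and was not called at any of them. Averaging both probe sets ended the 12 h (adjusted p = 0.0890) and 24 h (0.0683) calls.

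Epas1 is known for its expression in endothelial cells, and endothelial markers too were higher after induction. Of 15 endothelial and blood progenitor markers 2 were called higher at 12 h, 6 at 24 h and 11 at 48 h, and none lower. Of all genes tested 0.897%, 2.93% and 6.92% were called higher at these times. Their summed signal was 706 to 761 on uninduced and 923 to 970 on induced arrays at 12 h, 724 to 845 and 1268 to 1576 at 24 h, and 868 to 1092 and 2339 to 2652 at 48 h. Within the uninduced course, where Epas1 fell, the same 15 markers gave 4 rises and 3 falls, where 18.7% of all genes rose and 15% fell. The sum of 10 feeder fibroblast markers was lower at 48 h than at 12 h in both arms. It was 857 to 985 on uninduced and 990 to 1135 on induced arrays at 12 h. At 24 h it was 868 to 1005 and 968 to 1033, and at 48 h 592 to 745 and 735 to 777. Of these markers Col1a2 alone was called for induction (0.57 at 24 h and 0.84 at 48 h). The part of either marker list in the Epas1 difference was not tested. Against the same shares of all genes for induction, presomitic mesoderm markers gave 2, 7 and 9 rises of 10 at the 3 times. Of 8 cardiac and lateral mesoderm markers 6 rose at 48 h.

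**Figure D4:**
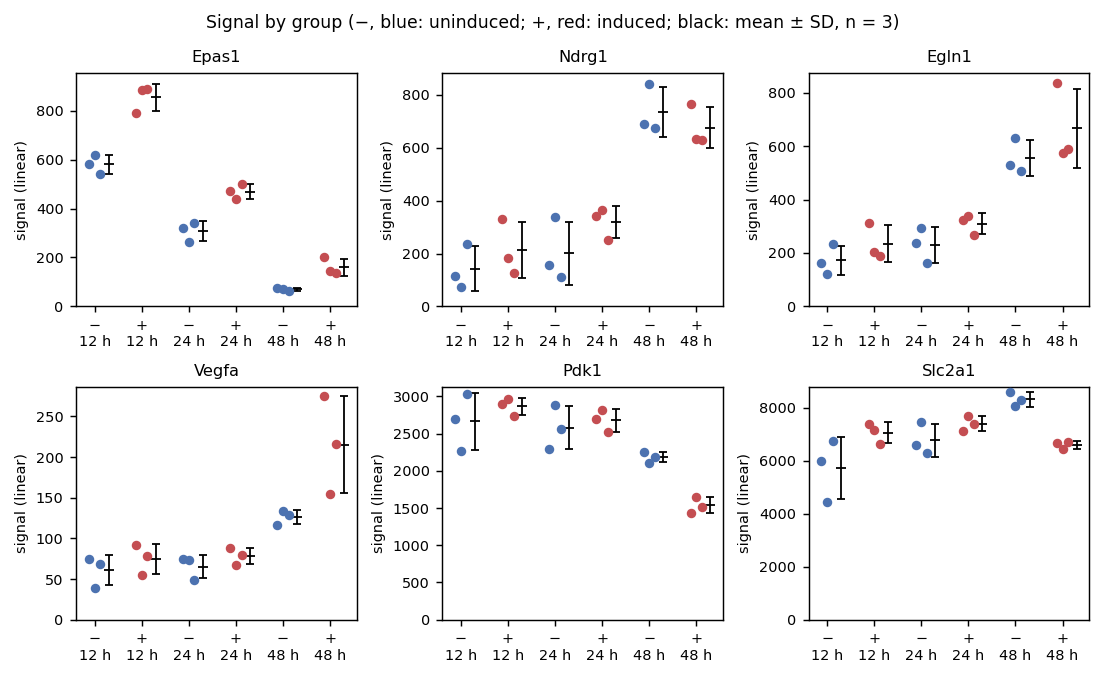
Signal (linear, deposited units) of Epas1, Ndrg1, Egln1, Vegfa, Pdk1 and Slc2a1 on each array, uninduced in blue and induced in red, with the mean ± SD of 3 arrays in black. Epas1 fell with time in both arms with induced arrays above uninduced ones, while Pdk1 and Slc2a1 were lower after induction at 48 h.

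Vegfa and P4ha2 were higher after induction at 48 h. Vegfa had uninduced signals of 116, 133 and 128 and induced signals of 275, 155 and 216, all 3 above the uninduced arrays but spread widely. The difference was 0.62 ± 0.17 log2 units (adjusted p = 0.0173, limma). It was 0.21 at 12 h and 0.19 at 24 h, neither called, and the effect at 48 h was not called different from that at 12 h by the interaction test (0.41 ± 0.24, adjusted p = 0.406). The 48 h call was lost without replicate 1 (adjusted p = 0.136) or 3 (0.0585) of the induced group or replicate 1 of the uninduced group (0.0707), and the second Vegfa probe set gave 0.24 (adjusted p = 0.463).

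P4ha2 had uninduced signals of 113, 136 and 144 and induced signals of 276, 167 and 236 at 48 h, again without overlap. The difference was 0.65 ± 0.19 log2 units (adjusted p = 0.0258, limma), and it was lost without replicate 1 or 2 of the uninduced group or replicate 1 or 3 of the induced group (adjusted p from 0.0537 to 0.150) and without the filter on dim signals (0.0531). P4ha1 of the same family stood 0.52 ± 0.22 higher and was not called (adjusted p = 0.150). Replicate 1 was the highest of the 3 arrays of the induced 48 h group for 22 of the 33 members (66.7%, against 37.7% of all genes tested).

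Pdk1, Ldhb and Slc2a1 were lower after induction at 48 h. Pdk1 had uninduced signals of 2249, 2109 and 2189 and induced signals of 1438, 1649.7 and 1516, well separated. The difference was -0.50 ± 0.089 log2 units, a 1.42-fold fall (adjusted p = 0.000366, limma), and it was called with any 1 array left out. The differences at 12 h (0.11) and 24 h (0.06) were not called, and the 48 h effect differed from that at 12 h (-0.61 ± 0.13, adjusted p = 0.00365) and at 24 h (-0.56 ± 0.13, 0.0135) by the interaction test. The difference from 12 h was not called with the probe sets averaged (-0.35, adjusted p = 0.0746). Of the other kept Pdk1 probe sets 1 gave -0.54 at 48 h and was called, and 1 gave -0.19 and was not.

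Ldhb had uninduced signals of 2273, 2689 and 2580.0 and induced signals of 2093, 1895 and 1833 at 48 h. The induced arrays were all lower, by a difference of -0.37 ± 0.082 log2 units (adjusted p = 0.00371, limma), which was called with any 1 array left out and by all 4 Ldhb probe sets. The 48 h effect was not shown to differ from that at 12 h (-0.34 ± 0.12, adjusted p = 0.0986), but was called different with the probe sets averaged (-0.39, 0.0316).

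Slc2a1, the main glucose transporter of many embryonic cells, had differences of opposite sign at 12 h and 48 h. At 12 h its uninduced signals were 5989.9, 4464 and 6736 and its induced signals 7399, 7153 and 6619.6. The ranges overlapped, and the difference of 0.32 ± 0.096 was not called (adjusted p = 0.142, limma). At 48 h the uninduced signals were 8601, 8072 and 8283 and the induced signals 6665, 6446 and 6702, far apart. The difference was -0.33 ± 0.096 (adjusted p = 0.0242), and the change of the effect from 12 h to 48 h was called (-0.65 ± 0.14, adjusted p = 0.00440). The 48 h call was lost without any 1 array of the comparison except replicate 2 of the uninduced group (adjusted p from 0.0444 to 0.0889 over the 6), without the filter (0.0514) or the intensity trend (0.0643), and with the probe sets averaged (0.0668), and the other Slc2a1 probe sets gave -0.37 and -0.41 and were not called. The 12 h difference was called without replicate 3 of the uninduced 12 h group (adjusted p = 0.0158).

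**Figure D5:**
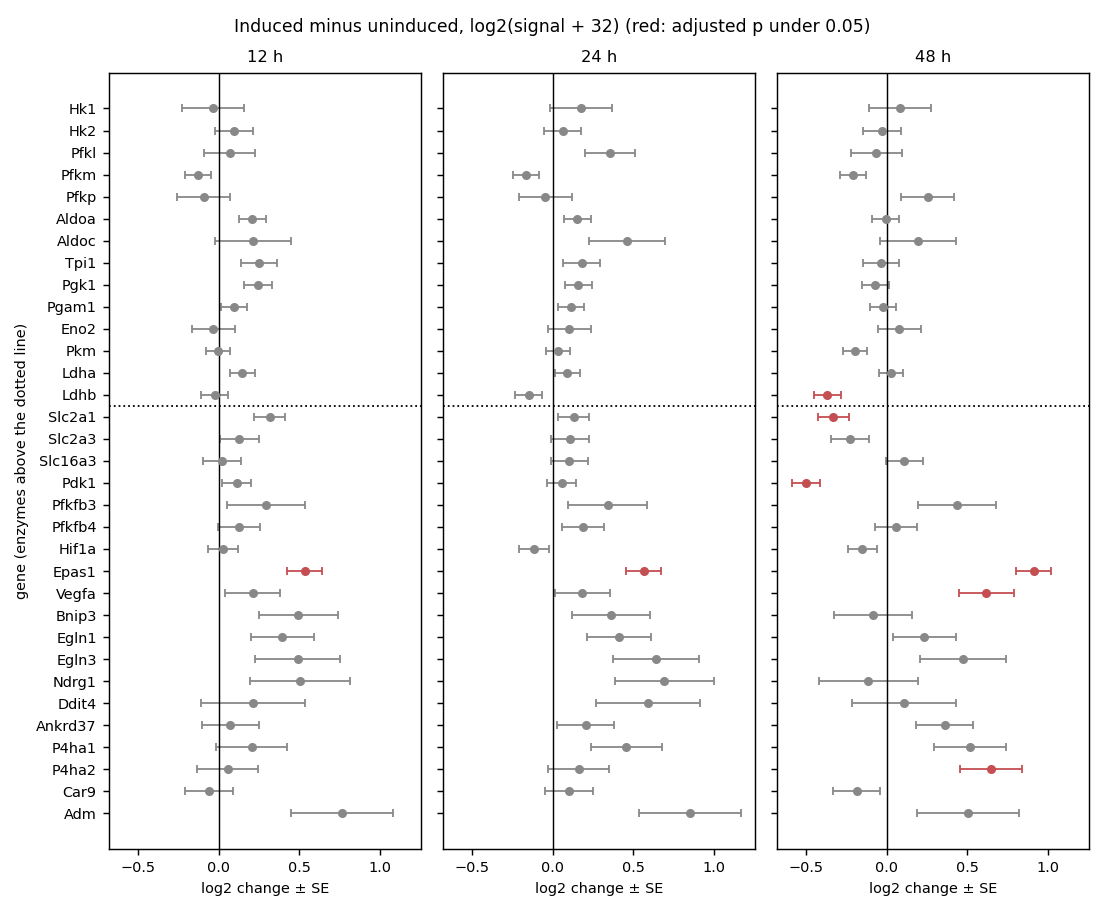
Difference of induced minus uninduced cultures at 12 h, 24 h and 48 h in log2 units, with its standard error, for the 33 members; red points have an adjusted p under 0.05, and the dotted line parts enzymes from other genes. Epas1 was called at all 3 times, and Vegfa, P4ha2, Pdk1, Ldhb and Slc2a1 at 48 h.

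Most members lay slightly above 0 at the early times without being called. At 12 h 26 of 33 had a positive estimate, with a median of 0.08 over the enzymes and 0.21 over the other genes, against 0.0026 over all genes. At 24 h it was 29 of 33, with medians of 0.11 and 0.21. These medians moved with the arrays named above: without replicate 2 of the uninduced 12 h group the 12 h medians were -0.07 and 0.03, and without its replicate 3 they were 0.18 and 0.45. Without replicate 3 of the uninduced 24 h group the 24 h medians were 0.03 and 0.12, and without its replicate 2 they were 0.18 and 0.38. Without replicate 1 of the induced 12 h group the 12 h medians were -0.01 and 0.10. No enzyme was called at either time.

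The largest of these estimates belonged to genes with a wide spread. Adm was 0.77 ± 0.32 higher at 12 h (adjusted p = 0.344, limma) and 0.85 ± 0.32 at 24 h (0.162). Its signals at 24 h were 23.1, 83.6 and 21.8 in uninduced and 137, 99.7 and 59.1 in induced cultures, which overlapped. Ndrg1 was 0.51 ± 0.31 and 0.69 ± 0.31 higher, Egln3 0.49 ± 0.27 and 0.64 ± 0.27, Bnip3 0.49 ± 0.24 and 0.36 ± 0.24, and Egln1 0.40 ± 0.20 and 0.41 ± 0.20, none called. Without replicate 2 of the uninduced 24 h group, on which most members were highest, Adm (adjusted p = 0.0372), Ndrg1 (0.0486) and Pfkl (0.0439) were called higher at 24 h beside Epas1. Without replicate 3 of the uninduced 12 h group, Aldoa (adjusted p = 0.0374) and Slc2a1 were called higher at 12 h, while Epas1 was not.

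Between times, the induction effect of no member was called different at 24 h and 12 h, where 0.0841% of all genes were called higher and 0.021% lower, and no member had an unadjusted p under 0.05. From 24 h to 48 h it was called lower for 1 member (Pdk1), where 1.65% of all genes were called lower, and from 12 h to 48 h for 2 (Pdk1 and Slc2a1), where 2.63% were. No member's effect was called higher at 48 h than at 24 h or 12 h, where 1.47% and 2.84% of all genes were.

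For induction at 48 h 6.92% of all genes were called higher and 5.56% lower. In the further lists, 5 of 12 genes of the pentose phosphate and serine branches were higher after induction at 48 h and none lower. The 5 genes included Psat1 (0.77), Psph (0.60), Mthfd2 (0.55) and Shmt2 (0.45), of which Psat1, Psph and Mthfd2 had fallen from 12 h to 48 h in uninduced cultures. Of the 11 further HIF pathway genes Siah2 (0.69) and the HIF competitor Cited2 (0.62) were higher and Hif3a (-0.65) was lower. Of 31 further hypoxia responders 1 was called, Stc2 (0.48, adjusted p = 0.0499, limma).

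Changes of the enzymes spanned a narrower range than those of the other genes. From 12 h to 48 h in uninduced cultures the enzymes ranged from -0.49 to 1.25 log2 units and the other genes from -2.60 to 2.23. For induction at 48 h the ranges were -0.37 to 0.26 and -0.50 to 0.91. No test of one subgroup against the other was made, because the members were chosen with results of these data known.

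Over the 18 arrays, the genes outside the set whose log2 signal followed Epas1 most closely were Pcolce2 (Pearson r = 0.970), Fth1 (0.957), Plac8 (0.956), Pax6 (0.953) and Wdr12 (0.952). The 18 points share 6 groups, so these values describe a common course over time and not independent samples. In Pcolce2, a procollagen C-proteinase enhancer, mean ± SD at 12 h was 427.9 ± 50.1 in uninduced and 561 ± 18.4 in induced cultures. In the same order it was 347 ± 57.4 and 412 ± 50.9 at 24 h, and 152 ± 11.8 and 219 ± 27.2 at 48 h. Mean signals at 24 h were 8059 and 8024 for Fth1, 579 and 630 for Plac8, and 32.8 and 41.8 for Pax6. For Wdr12 they were 1033 and 1039.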

How the data were processed

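Total RNA of 18 samples was measured on single-colour Affymetrix arrays. The deposited values are signal intensity on a linear scale, 1 per probe set (45101), which the authors obtained with GCOS according to the submitters' processing notes. How GCOS computed them is not given in the sources used here. Values were used as deposited, as log2(signal + 32). After 64 control probe sets were left out, 34945 had 1 annotated gene, 932 several and 9160 none. A probe set was kept if a group mean reached the 40th percentile (signal 13.3), and the brightest stood for its gene. limma 3.58.1 in R 4.3.3 fitted 1 mean per group over all arrays (12 residual degrees of freedom), with moderated variances and an intensity trend. The fit was run on simulated data too, drawn independently for each gene and array. Those data lack the shared shifts of arrays described above, so they do not test the fit against such shifts. Figures used Python 3.11.15 and matplotlib 3.10.9.

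The members and lists were chosen with earlier results of these data known. Values on every array are given for Epas1, for up to 4 called members per induction contrast and direction, and for up to 6 per direction from 12 h to 48 h without induction; values on other members' arrays were added after seeing the data. Of each other list up to 4 called genes with the largest changes are named. Replicate numbers were checked as pairs by correlating deviations from group means. At 24 h r was 0.196, 0.136 and 0.442 for same-numbered arrays, while differently numbered arrays reached 0.203. It was 0.0104, 0.0727 and -0.0687 at 12 h and -0.127, -0.0662 and 0.0835 at 48 h. These values do not settle whether the numbers pair the arrays. The main tests used no pairing at any time. The labels do not say what a number marks. Other settings were quantile normalization, other filters and offsets, averaging the probe sets of each gene, no or a robust trend, compared arrays alone, a replicate block and leaving out each array.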

Additional observations from a re-analysis of the deposited data

Results flagged for a closer look

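The induction effect on 2 members differed between times by an interaction test. For Pdk1 the difference between induced and uninduced cultures was lower at 48 h than at 24 h by -0.56 log2 units and lower than at 12 h by -0.61. For Slc2a1 it was lower at 48 h than at 12 h by -0.65. Both genes were higher on average after induction at 12 h (0.11 and 0.32, not called) and lower at 48 h (-0.50 and -0.33, called). With all kept probe sets of each gene averaged, in place of the brightest, the 12 h to 48 h difference for Pdk1 was -0.35 (adjusted p = 0.0746, limma).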

How the results depend on the processing

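Of 76 called member differences checked, 51 kept their call under every other setting, and none reversed. Counts of members called higher with induction went from 1 to 0 at 12 h and at 24 h when the probe sets of each gene were averaged, and members lower from 12 h to 48 h without induction from 4 to 2. With the compared arrays alone, 5 members were higher and 5 lower at 48 h with induction (3 and 3 over all arrays), none higher from 12 h to 24 h without it (2), and 2 effects lower at 48 h than at 24 h (1). Leaving out each array in turn gave 0 to 2 members higher with induction at 12 h, 1 to 4 at 24 h and 1 to 3 at 48 h; without induction 0 to 5 higher from 12 h to 24 h, 6 to 18 higher from 24 h to 48 h and 2 to 4 lower from 12 h to 48 h; and 1 to 2 effects lower at 48 h than at 24 h. The difference between the 24 h and 12 h effects on Epas1, 0.03 and not called, was -0.042 with the mean of its probe sets and -0.066 to 0.099 with single arrays left out. With the replicate number as a block, 1 member was higher at 24 h as before, no call was lost, and 1 was gained, Pgk1 for the effect at 48 h against 12 h (adjusted p = 0.0467, limma). The cause of these shifts was not tested.

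Over all genes, calls at 24 h with induction went from 560 to 240 and from 12 h to 24 h without it from 575 to 163 with the compared arrays alone. For the effect at 24 h against 12 h they went from 15 to 9 with the mean of probe sets and to 24 with the block. With single arrays left out they fell as low as 74 at 12 h with induction (154 over all arrays). No setting moved the median of all genes by more than 0.039. Eno2 and Car9 were dim, and 3 arrays a group limit the precision.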
